A study of Mus musculus with 3 samples.

Results

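The regions described here are stretches of intergenic chromatin that were enriched for NKX2-5 in both ChIP-seq libraries of the E11.5 mouse heart and that lay within reach of a gene. They were chosen by the peak calls themselves: a peak of one library had to overlap a peak of the other by at least 1 bp, and linked pairs were merged into 1 region. The centre of the stretch that the 2 peaks had in common, here called the midpoint, had to lie outside every gene body, more than 1 kb from any transcript start and at most 100 kb from the nearest start of a protein-coding gene. This held for 599 of the 2546 regions shared by both libraries (23.5%, 21.9 to 25.2, where brackets hold 95% exact Clopper-Pearson bounds that cover counting error). The other shared regions comprised 436 at promoters, 78 in exons, 1036 in introns and 397 in intergenic sequence farther than 100 kb from a start. Positions spaced evenly every 10 kb along the genome fell in the same class in 27.7% of cases.

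The study mapped NKX2-5 in wild-type embryonic hearts of Parkes mice, and both ChIP libraries, named S1 and S4, were made from this same stage, tissue and genotype with 1 antibody against NKX2-5. Neither the labels nor the methods used here state whether S1 and S4 came from separate litters, so the spread between them may be technical. An Input library of genomic DNA was also made and was not analysed here. The heart at this stage holds myocardium, endocardium, epicardium and blood cells, and a peak list of the whole organ does not tell which of them carried the enrichment.

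NKX2-5 is a homeodomain transcription factor that is needed for the early heart tube to develop, and it binds DNA through a short core that ends in AAGTG. It works with other cardiac factors, among them GATA and T-box proteins, and much of the control of cardiac genes runs through distal elements that act on a promoter across intervening sequence. MEIS proteins, homeodomain factors of the TALE family, bind the core TGACA. Both cores can be fused in a single element, and the form searched here, GTGNTGACA, is the end of the NKX2-5 core followed after 1 base by the MEIS core.

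To show what such an element looks like in these regions, the 101 bases around the midpoint are printed for 5 high-scoring regions that held GTGNTGACA there. The region is named by its nearest protein-coding start, coordinates are those of mm9, the strand is the one on which the first match reads forward, and capitals mark matches to GTGNTGACA and, where also present, to TNAAGTG.
4933436C20Rik region, chr8:94847822-94847922, plus strand: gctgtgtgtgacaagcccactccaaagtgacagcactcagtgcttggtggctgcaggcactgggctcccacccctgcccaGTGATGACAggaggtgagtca
Lsm3 region, chr6:91496390-91496490, plus strand: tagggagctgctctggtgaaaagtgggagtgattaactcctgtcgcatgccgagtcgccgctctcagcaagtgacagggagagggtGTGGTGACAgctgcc
Mmp13 region, chr9:7270218-7270318, plus strand: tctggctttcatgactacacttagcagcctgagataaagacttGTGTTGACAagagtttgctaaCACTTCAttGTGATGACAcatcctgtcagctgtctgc
Ryr2 region, chr13:12225876-12225976, minus strand: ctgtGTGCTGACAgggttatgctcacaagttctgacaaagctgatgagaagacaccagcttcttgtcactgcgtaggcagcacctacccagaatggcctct
Wdr60 region, chr12:117503938-117504038, plus strand: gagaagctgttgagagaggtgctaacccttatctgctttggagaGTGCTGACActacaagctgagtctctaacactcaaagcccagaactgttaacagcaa

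The base at the free position differed among these regions, and each of the 4 bases occurred at least once. The sequence near Mmp13, which encodes a collagenase, held GTGNTGACA at 2 places and TNAAGTG once, on the opposite strand. Near Ryr2, the gene of the cardiac calcium release channel, the midpoint lay 26.7 kb upstream of the start, and the region scored 563.86 in S1 and 905.94 in S4.

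The longer form of the NKX2-5 core, TNAAGTG, is shown in the same way for the 6 highest-scoring regions that held it within 50 bp of the midpoint and held no GTGNTGACA there. Capitals mark the match.
Zfp777 region, chr6:47960817-47960917, plus strand: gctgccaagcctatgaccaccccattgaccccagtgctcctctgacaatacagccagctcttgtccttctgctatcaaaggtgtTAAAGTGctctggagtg
Arl8a region, chr1:137053115-137053215, minus strand: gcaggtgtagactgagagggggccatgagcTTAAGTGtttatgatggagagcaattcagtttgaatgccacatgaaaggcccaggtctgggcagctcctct
Gm10481 region, chr5:13022463-13022563, minus strand: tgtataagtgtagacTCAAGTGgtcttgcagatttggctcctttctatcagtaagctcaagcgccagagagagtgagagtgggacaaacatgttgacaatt
Rpl9-ps4 region, chr13:72557145-72557245, minus strand: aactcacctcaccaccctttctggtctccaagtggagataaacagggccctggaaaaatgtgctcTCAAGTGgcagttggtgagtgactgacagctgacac
Mybpc1 region, chr10:88085437-88085537, minus strand: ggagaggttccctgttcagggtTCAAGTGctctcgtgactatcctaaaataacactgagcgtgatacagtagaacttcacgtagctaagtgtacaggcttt
Popdc3 region, chr10:44949784-44949884, minus strand: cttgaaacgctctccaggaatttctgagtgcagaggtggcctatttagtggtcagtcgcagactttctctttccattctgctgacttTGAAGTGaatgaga

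These windows served to read the sequences, and all counts below used a wider window that reached 100 bp to either side. The region near Popdc3, a gene of the Popeye domain family of cyclic AMP binding membrane proteins, lay 59.3 kb upstream of the start and scored 995.96 in S1 and 1741.06 in S4. Mybpc1 encodes the slow skeletal form of myosin binding protein C, and its region lay 17.6 kb upstream with S1 and S4 scores of 1009.76 and 1149.46.

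Each peak has a p-value from the authors' peak caller, and the score is its negative log10 multiplied by 10. The background behind that p-value is not given in the sources used here. Over the 599 regions the S1 score ran from 140.01 to 3100 with a median of 285.79, and the S4 score from 140.31 to 3100 with a median of 308.35. The 2 ranges overlapped almost entirely, and S4 scored higher in 357 regions (59.6%). The ratio of S4 to S1 ran from 0.203 to 4.01, and 521 regions (86.98%) scored within 2-fold in both libraries. Exactly 3100, the highest score in both lists, was held by 1 region in S1 and 3 in S4. If this value is a limit of the score, which was not tested, ratios that use it are bounds. Across regions the scores had a Spearman's rho of 0.676, given as a description since each pair comes from the same 2 libraries. The peak calls behind the scores chose the regions and depth is unknown, so no difference in score was tested between libraries or positions.

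Each region was ranked by the smaller of its 2 scores, which had a median of 239.86. It was under 200 in 219 regions (36.56%), and it reached 1000 in 30 regions (5.01%), against 4.56% of all shared regions. The median smaller score was 262.44 in intergenic regions beyond 100 kb, 250.30 in introns and 205.00 at promoters. Peaks had a median width of 689 bp in S1 and 856 bp in S4, and their common stretch had a median of 631 bp. The region with the lowest smaller score lay 48.3 kb downstream of Eri1, an RNA exonuclease gene, and scored 140.01 in S1 and 143.76 in S4.

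**Figure D1:**
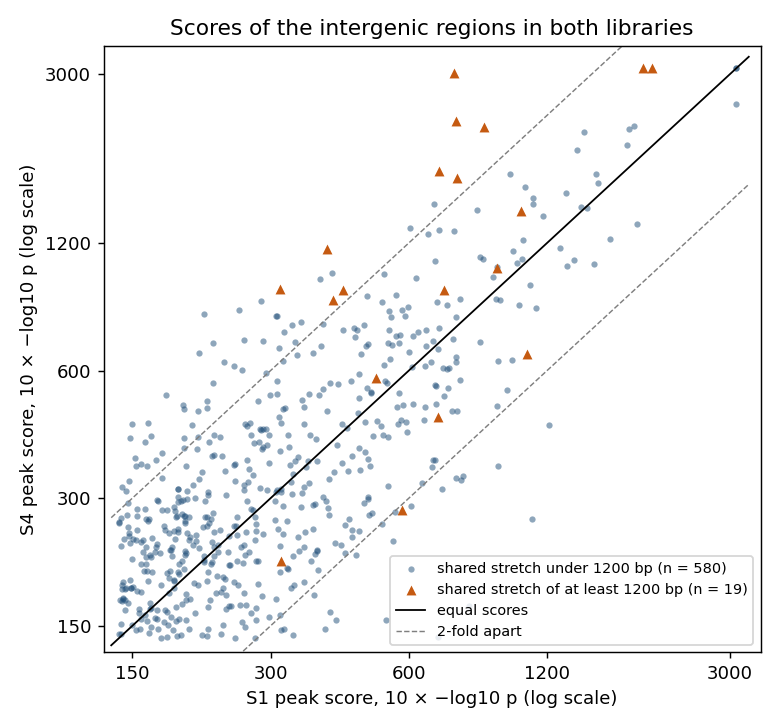
Peak scores of the 599 regions in S1 (horizontal) and S4 (vertical), both on log scales, with 1 point per region, a solid line at equal scores and dashed lines at a 2-fold difference. Most points (521) lie between the dashed lines, and triangles mark the 19 regions whose shared stretch was at least 1200 bp, of which 15 scored higher in S4.

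None of the 10 highest-scoring regions had its nearest start in any of the 14 gene lists described further on. The highest, at chr6:47960319-47961474, lay 38.0 kb downstream of the start of Zfp777, a zinc finger gene, and reached 3100 in both libraries, the highest score either list held. The next, at chr1:137052739-137053762, lay 9.76 kb downstream of the start of Arl8a, a small GTPase gene of lysosome transport, and scored 3095.23 in S1 and 3096.74 in S4. The third scored 3095.46 and 2558.86 and lay about equally far from 2 starts, 34.8 kb from the predicted gene Gm10655 and 34.96 kb from Tle3, which encodes a Groucho family corepressor.

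The ninth region was placed in a like manner, 32.1 kb from 4933436C20Rik and 33.8 kb from Irx5, an Iroquois homeobox gene active in the heart. It scored 1549.61 in S1 and 1658.81 in S4 and held GTGNTGACA, as printed above. For both of these regions the nearest start was closer than the next by less than 2 kb, so the name of the nearest gene is a label of position and no more. In all, 365 regions (of 599) had a second protein-coding start within 100 kb.

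Further regions of the 10 lay near Actg1, Gm10192, Lclat1, Hddc2 and Gm10481. The S1 scores of these 5 ran from 1531.79 to 1946.21 and their S4 scores from 1749.63 to 3100. S4 scored higher in all 5. Gm10192 and Gm10481 are predicted genes, Lclat1 encodes an acyltransferase of cardiolipin, and Actg1 encodes cytoplasmic gamma actin. Of the 10 regions, 9 held AAGTG within 100 bp of the midpoint, 3 held TNAAGTG and 1 held GTGNTGACA. Over all 599 regions the shares were 67.1%, 33.6% and 11.52%.

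Some of the highest scores belonged to unusually wide regions at the ends of genes. In 19 regions the common stretch was at least 1200 bp long, a limit set after the widths were seen, so that the following counts have no test. The nearest gene edge was a 3′ end within 5 kb in 13 of the 19 (68.4%), against 107 of the other 580 (18.4%). They included regions just past the 3′ ends of Actg1 and Actb, the cytoplasmic actin genes, of Eef1a1, a translation elongation factor gene, of Ankrd1 and Myl7, which encode a cardiac ankyrin repeat protein and the atrial myosin regulatory light chain, and of the non-coding RNA H19.

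The widest, at chr11:120203787-120207204, shared 3373 bp, had its midpoint 1.5 kb past the 3′ end of Actg1 and scored 1946.21 in S1 and 3100 in S4. The region past Actb scored 753.90 in S1 and 3021.82 in S4. S4 scored higher in 15 of the 19, with a median ratio of S4 to S1 of 1.59, against 1.09 in the other 580. Only 1 of the 19 (5.26%) held TNAAGTG or GTGNTGACA within 100 bp of its midpoint, against 251 of 580 (43.3%). Over their whole common stretch, 10 of the 19 (52.6%) held one of these motifs, against 383 of the 580 (66.0%). These 2 shares cover unlike lengths, since a longer stretch holds more matches by length alone. Evenly spaced windows of 631 bp, the median stretch of all regions, gave 32.8%, and windows as long as the wide stretches were not measured. Without the wide regions the share that held either motif near the midpoint was thus 43.3%, and 42.1% with them.

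The regions were spread along the permitted distance much as the permitted sequence was. The nearest protein-coding start lay at a median distance of 29.6 kb, and at 28.4 kb for evenly spaced positions of the same class. Between 10 and 25 kb lay 122 regions (20.4%, 17.2 to 23.8) against 24.5% of positions, and between 5 and 10 kb lay 78 (13.02%, 10.4 to 16.0) against 11.2%. In each of the 6 distance steps the share was between 0.83 and 1.16 times that of the positions. The start was approached from upstream in 413 regions (68.95%), as in 68.1% of the positions.

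**Figure D2:**
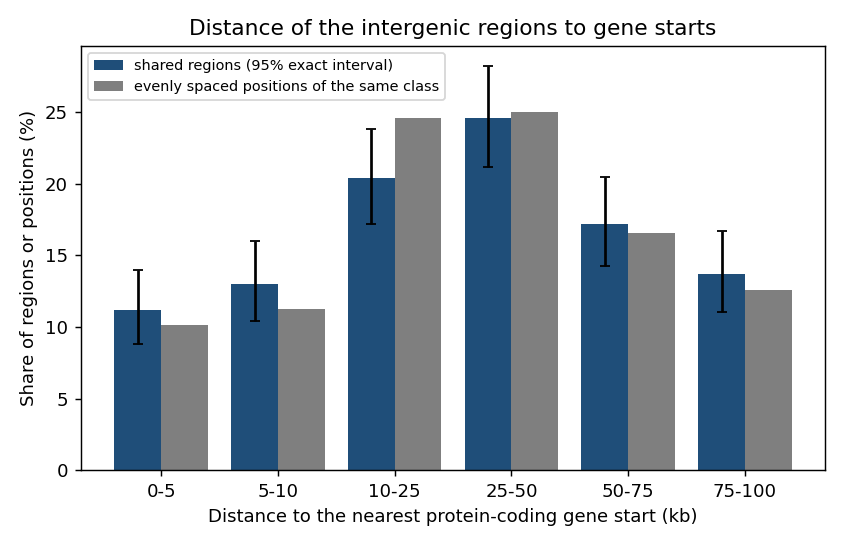
Share of the 599 regions (blue, with 95% exact intervals for counting error) and of evenly spaced positions of the same class (grey) by distance in kb to the nearest protein-coding gene start. The bars of regions stay between 0.83 and 1.16 times the grey bars in every step.

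At the far limit, the last region inside lay 98.98 kb upstream of Gm7292 and scored 321.47 in S1 and 739.26 in S4. The first region outside lay 100.1 kb upstream of Slc7a14, an amino acid transporter family gene, and scored 961.44 and 880.11. At the near limit, the last region inside lay 1.02 kb from a transcript start, its nearest protein-coding gene being Bag6, and scored 140.40 and 263.35. The first outside lay 0.988 kb from a transcript start of Inpp4b, an inositol phosphatase gene, and scored 656.14 and 597.74.

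Regions also lay near one another. Another shared region of any position was found within 10 kb of 96 regions (16.0%), against 8.31% of the intergenic regions beyond 100 kb, 10.4% of those in introns and 14.2% of those at promoters. Together they were nearest to 529 protein-coding genes, of which 466 had 1 region, 56 had 2 and 7 had 3. Among the 7, the 5 with the highest summed smaller scores were Odf1, Smad7, Btg1, Gm5045 and Arhgef3. For these 5, all shared regions nearest to the gene were of the intergenic class.

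Smad7 encodes an inhibitory SMAD that restrains TGF-beta and BMP signalling. Its 3 regions lay 47.6 and 71.7 kb upstream and 54.0 kb downstream of the start. They scored 1007.46, 295.16 and 646.93 in S1 and 634.97, 401.33 and 458.89 in S4, in that order. The order of the 3 was the same in both libraries, and the libraries themselves had no common direction, since S1 was higher in 2 of them.

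Odf1, a sperm tail gene, had its 3 regions between 33.0 and 53.1 kb upstream. One scored 1120.49 in S1 and 1485.43 in S4, and the other two scored under 230 in both libraries. Btg1, an anti-proliferative gene, had 1 region 13.9 kb upstream, with scores of 358.40 and 355.31, and 2 downstream at 8.81 and 91.7 kb, with S1 scores of 214.99 and 203.29 and S4 scores of 218.92 and 322.17. The 3 regions of Gm5045 lay within 16.6 kb of its start, and those of Arhgef3 within 86.4 kb, with smaller scores up to 362.93 and 232.46.

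The sequence of the regions was not part of the rule that chose them. The forms TNAAGTG and GTGNTGACA, however, were picked knowing the motifs that the study had found at peaks of these same libraries, so the tests of these forms and of the cores in them are not independent evidence and give the size of a known difference. A window that reached 100 bp to either side of each midpoint was compared with 1156 windows of the same length 2 kb to either side that overlapped no peak, by a two-sided Fisher's exact test with Benjamini-Hochberg adjustment over 14 features. Windows are not replicates of a condition, so the p-values describe these lists. TNAAGTG was found in 201 of 599 regions (33.6%, 29.8 to 37.5) and in 10.2% of flanking windows (odds ratio 4.44, exact adjusted p = 1.67e-30, Fisher's exact test). For all shared regions the share was 32.4%, and for evenly spaced windows of this class 10.7%. The core AAGTG itself was found in 402 regions (67.1%) and in 39.5% of flanking windows (odds ratio 3.12, exact adjusted p = 2.28e-27), where all shared regions gave 64.0% and evenly spaced windows 38.4%.

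The spaced pair had the greatest odds ratio of the 14 features. GTGNTGACA was found in 69 regions (11.52%, 9.07 to 14.3) and in 1.3% of flanking windows (odds ratio 9.90, exact adjusted p = 7.84e-20, Fisher's exact test), against 9.54% of all shared regions and 0.676% of evenly spaced windows. TGACA, the MEIS core, which every GTGNTGACA contains, was found in 395 regions (65.9%) and 38.8% of flanking windows (odds ratio 3.05, exact adjusted p = 1.38e-26), against 64.7% and 37.3%. TGANTGACA, a form bound by PBX and MEIS together, was found in 16 regions (2.67%) and 0.779% of flanking windows (odds ratio 3.50, exact adjusted p = 0.00377), against 2.55% of all shared regions and 0.948% of evenly spaced windows. The contiguous fusion AAGTGACA, which contains both AAGTG and TGACA, was found in 14 regions (2.34%) and did not pass against 1.3% of flanking windows (odds ratio 1.82, exact adjusted p = 0.162). For this form all shared regions gave 2.36% and evenly spaced windows 0.946%. Missing the threshold does not show that its shares in regions and flanks were equal.

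Motifs of the GATA and TEAD factors were also more frequent at the midpoints. The motif of GATA factors, AGATAA, was found in 134 regions (22.4%) and 10.5% of flanking windows (odds ratio 2.46, exact adjusted p = 1.55e-10), where all shared regions gave 19.0% and evenly spaced windows 12.8%. ACATTCC, bound by the TEAD factors of the Hippo pathway, was found in 38 regions (6.34%) and 2.68% of flanking windows (odds ratio 2.46, exact adjusted p = 0.000672), where all shared regions gave 6.09% and evenly spaced windows 2.76%. The T-box motif AGGTGTGA was found in 9 regions (1.5%) and 0.779% of flanking windows (exact adjusted p = 0.226), TGANTCA of AP-1 in 8.18% and 6.23% (exact adjusted p = 0.173), the CArG box of SRF in 0.668% and 0.692% (exact adjusted p = 1.0), and the MEF2 consensus in 4.17% and 2.85% (exact adjusted p = 0.186). These 4 motifs did not pass, which does not show that they were equally frequent in both. In that order, all shared regions gave 1.73%, 5.81%, 1.06% and 4.36%, and evenly spaced windows 0.819%, 5.97%, 1.2% and 4.15%. A content of G or C of at least 50% was found in 46.9% of the regions and 25.2% of flanking windows (exact adjusted p = 2.71e-19), and at least 3 CG dinucleotides in 48.4% and 31.5% (exact adjusted p = 1.26e-11). For these 2 features all shared regions gave 46.8% and 53.3%, and evenly spaced windows 15.1% and 22.4%.

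**Figure D3:**
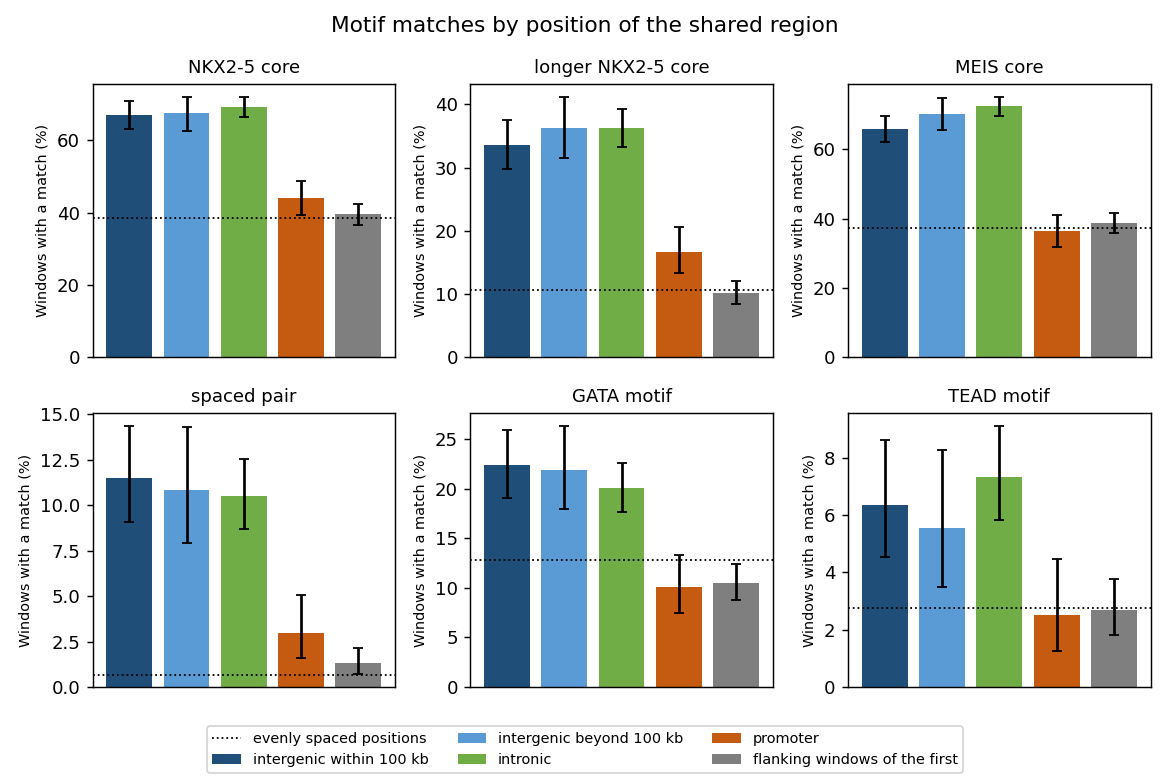
Share of windows, reaching 100 bp to either side of the midpoint, that held each of 6 motifs, for shared regions in 4 positions and for the windows 2 kb from the intergenic regions, with 95% exact intervals for counting error and a dotted line for evenly spaced windows of the intergenic class. In every panel the intergenic bar (33.6% for the longer NKX2-5 core, 11.52% for the spaced pair) stands above those of promoters and flanking windows.

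The regions were next compared with shared regions in other positions, with p-values adjusted over 42 tests. Of the 14 features, 9 differed from the promoter regions, 1 from the intergenic regions beyond 100 kb and 1 from the intronic regions. TNAAGTG was found in 16.7% of promoter regions (odds ratio 2.51, exact adjusted p = 8.69e-09, Fisher's exact test), GTGNTGACA in 2.98% (odds ratio 4.24, exact adjusted p = 1.08e-06) and AGATAA in 10.1% (odds ratio 2.57, exact adjusted p = 1.08e-06). AP-1 motifs were found in 3.44% of promoter regions against 8.18% of the intergenic regions (exact adjusted p = 0.00748). All shared regions gave 5.81% and evenly spaced windows 5.97%, and against flanking windows this motif had not passed. Content of G or C of at least 50% was more frequent at promoters (71.3%, exact adjusted p = 4.98e-14), as were 3 or more CG dinucleotides (86.9%, exact adjusted p = 1.85e-38).

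Against the 397 intergenic regions beyond 100 kb, only the content of G or C passed, with 46.9% against 31.7% of regions at or above 50% (odds ratio 1.90, exact adjusted p = 1.07e-05, Fisher's exact test). GTGNTGACA was found in 10.8% (7.95 to 14.3) of those regions and TNAAGTG in 36.3% (31.5 to 41.2). Against the 1036 intronic regions, only TGACA passed, and it was less frequent in the intergenic regions (65.9% against 72.5%, odds ratio 0.735, exact adjusted p = 0.0229). GTGNTGACA was found in 10.5% (8.72 to 12.6) of intronic regions and TNAAGTG in 36.2% (33.3 to 39.2), intervals that overlap those of the intergenic regions within 100 kb.

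Within the 599 regions, motif content was set beside distance and score. A p that misses the threshold here does not show that the shares were equal. TNAAGTG was found in 33.7% of the 267 regions up to 25 kb from a start and in 33.4% of the 332 farther ones (exact adjusted p = 1.0, Fisher's exact test). GTGNTGACA was found in 10.1% (6.77 to 14.4) and 12.7% (9.27 to 16.7) of them (exact adjusted p = 0.622). None of the 14 features passed by distance, and 1 had an unadjusted p under 0.05, TGANTGACA with 0.749% against 4.22% (exact p = 0.00945, exact adjusted p = 0.132). GTGNTGACA was found in 13.7% (10.02 to 18.1) of the 299 regions above the median smaller score and 9.33% (6.29 to 13.2) of the other 300 (exact adjusted p = 0.56), and TNAAGTG in 32.8% and 34.3% (exact adjusted p = 0.894). By score, 0 of 14 features passed Fisher's exact test, and 0 had an unadjusted p under 0.05, for regions that had already been chosen by peak calls with a score minimum.

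A departure from independent occurrence of TNAAGTG and GTGNTGACA was not detected. Both were found in 18 regions, TNAAGTG alone in 183, GTGNTGACA alone in 51 and neither in 347 (57.9%). Independent occurrence would have placed both in 3.87% of regions, and 3.0% held both (odds ratio 0.669, p = 0.177, two-sided Fisher's exact test). Either form was found in 252 regions (42.1%), against 11.3% of the flanking windows. Over the whole common stretch, TNAAGTG was found in 342 regions (57.1%) and GTGNTGACA in 109 (18.2%), where evenly spaced windows of 631 bp gave 31.2% and 2.28%.

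Both motifs were most frequent within 100 bp of the midpoint. TNAAGTG was found within 50 bp of the midpoint in 21.9% of regions, between 50 and 100 bp in 15.5%, between 100 and 150 bp in 13.5%, and between 950 and 1000 bp in 5.01%, where evenly spaced positions gave 5.63%. GTGNTGACA was found in 5.68%, 6.34% and 2.84% of regions in the first 3 steps and in 0.167% in the last, against 0.382% of the positions. AGATAA went from 11.3% and 12.5% in the first 2 steps to 5.68% in the last.

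**Figure D4:**
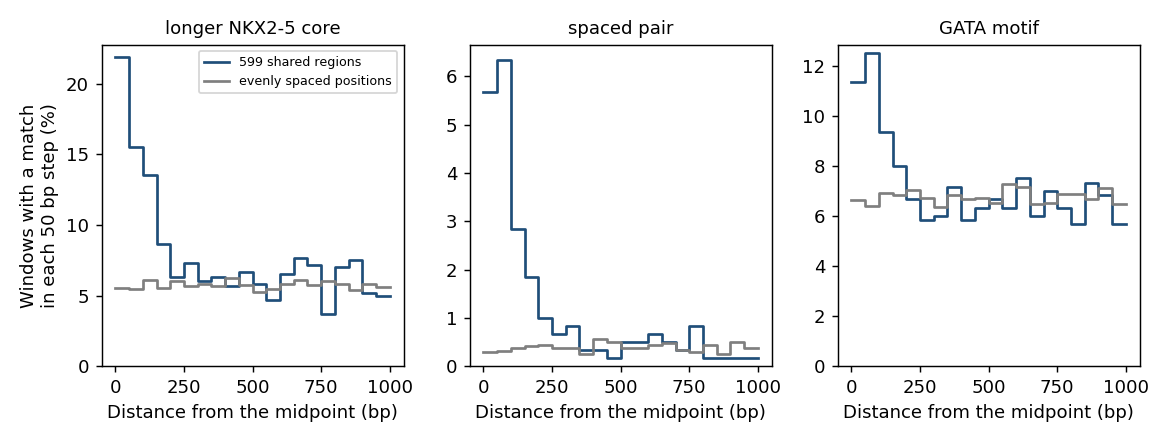
Share of the 599 regions (blue) and of evenly spaced positions (grey) with a match in each step of 50 bp from the midpoint, counting both sides, for the longer NKX2-5 core, the spaced pair and the GATA motif. The share of the longer core was 21.9% in the first step and 5.01% in the last. That of the spaced pair was 5.68% in the first step, 6.34% in the second and 0.167% in the last.

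The bases beside the spaced pair were also read. In the 69 regions 71 matches were read. Matches too near the window edge for all of these bases were left out, here and for TNAAGTG. The base after GTGNTGACA was G in 42 (59.2%) and the next base G in 35 (49.3%), against 29.1% and 17.6% of the 478 matches read in evenly spaced windows. The base before it was C in 1 match (1.41%), against 8.16%. The free base inside it varied, and each of the 4 bases took between 22.5% and 29.6% of matches. In the 247 matches of TNAAGTG, the free base was C in 39.3% and A in 12.1%, against 24.7% and 25.3% in evenly spaced windows. These shares are descriptions of matches, some of which share a region.

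The genes nearest to the regions were counted over 14 lists of genes. Of all 22238 protein-coding genes with a distinct symbol, 528 were nearest to at least 1 region (2.37%), 842 were among the 2 nearest (3.79%), and 1962 were nearest to a shared region of any position (8.82%). Since genes differ in how much intergenic sequence lies around them, regions were also counted per Mb of intergenic sequence nearest to the listed genes, which gave 0.845 per Mb over all genes. Shared regions of any position were nearest to 62.5% of sarcomere and Z-disc genes and 48.15% of cardiac transcription factors. For ion channel and calcium handling genes this share was 44.19%, and for Wnt, Notch, FGF and semaphorin genes 40.3%. The lowest share of a list was 9.375%, for endothelial genes, so closeness to listed genes was not particular to the intergenic regions. Lists were chosen with results of these data known, and their counts are descriptions without a test.

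The list of sarcomere and Z-disc genes had the highest values, with 12 of 48 genes nearest to a region (25%) and 14.2 regions per Mb. Fhl2, which encodes a LIM domain protein of the Z-disc, had a region 83.9 kb upstream of its start at chr1:43304150-43305228, with S1 and S4 scores of 1321.12 and 1574.82, and a second 76.0 kb upstream with scores of 298.06 and 363.28. Myl2, the gene of the ventricular regulatory light chain, had 2 regions close together, at 6.3 kb upstream with scores of 929.18 and 886.09 and at 8.0 kb upstream with 1214.19 and 446.25. The first of the Myl2 regions scored alike in both libraries, and the second scored higher in S1 by more than 2-fold. Ankrd1 had the wide region past its 3′ end described above, with 876.73 and 2251.86, and another 10.1 kb upstream of its start with 555.70 and 237.55. S4 scored higher at the first of these and S1 at the second.

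The further sarcomere genes nearest to a region were Tnnt2, Smpx, Myh7, Myl7, Myoz2, Myl3, Tnni2, Mybphl and Tpm2. The region near Tnnt2, the gene of cardiac troponin T, lay 4.7 kb upstream and scored 621.54 in S1 and 992.30 in S4. The region nearest to Myh7, the gene of the slow myosin heavy chain, lay 10 kb upstream and scored 457.66 and 719.33. That of Myl3 shared only 7 bp between its peaks, the shortest of all, and scored 326.83 and 204.79. Of the 16 regions of this list 6 held TNAAGTG and 0 held GTGNTGACA, which allows a share of up to 18.75% (3 counts of 16).

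Among cardiac transcription factors, 8 of 54 genes were nearest to a region (14.8%, 2.63 regions per Mb). Beside Ankrd1, which is also in this list, they were Tbx18, Id3, Hand2, Hey1, Id2, Casz1 and Prox1. The region of Tbx18, a T-box gene of the sinus venosus and epicardium, lay 28.9 kb downstream and scored 747.29 in S1 and 713.51 in S4. That of Id3, an inhibitor of bHLH factors, lay 4.49 kb upstream, held TNAAGTG and scored 565.73 and 492.25. Both regions scored alike in the 2 libraries.

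In the list of BMP, TGF-beta and activin genes, 6 of 35 were nearest to a region (17.1%, 3.69 per Mb): Smad7, Bmp10, Bmp7, Bmp6, Nog and Smad6. Bmp10, a ligand of the trabecular myocardium, had a region 4.72 kb upstream with S1 and S4 scores of 525.55 and 869.43 and another 14.7 kb downstream with 161.43 and 357.62. S4 was higher at both. The region of Nog, the gene of the BMP antagonist noggin, lay 11.97 kb upstream, held GTGNTGACA and scored 218.23 and 191.13.

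The list of secreted cardiac peptides and chamber markers had 3 of 30 genes (10%, 3.73 per Mb), Popdc3, Bmp10 and Nppb. Nppb, the gene of brain natriuretic peptide, had a region 19.8 kb upstream, which held TNAAGTG and scored 250.13 in S1 and 614.07 in S4, and another 16.3 kb upstream with 236.62 and 195.66. The list of ion channels and calcium handling had 4 of 43 genes (9.30%, 1.91 per Mb), Ryr2, Itpr2, Hcn4 and Slc8a1. The region of Hcn4, the gene of a pacemaker channel, lay 20.5 kb upstream, held TNAAGTG and scored 466.65 and 516.50, and that of Itpr2, an inositol trisphosphate receptor gene, lay 35.1 kb upstream and scored 764.80 and 481.97.

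Of the Wnt, Notch, FGF and semaphorin genes, 5 of 67 were nearest to a region (7.46%, 1.27 per Mb). Axin2, a feedback inhibitor of Wnt signalling, had a region 91.5 kb downstream of its start with S1 and S4 scores of 1120.72 and 1534.65. Rbpj, the DNA-binding factor of the Notch pathway, had one 35.5 kb upstream, which held TNAAGTG and scored 654.93 and 685.22. That of Wnt11, a non-canonical Wnt ligand, lay 16.8 kb upstream and scored 559.91 and 278.83. The remaining 2 genes were Plxna4 and Sema3e.

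Lists that mark other cell types or general functions held between 0 and 4 genes nearest to a region. This range also takes in the lists of ion channels, with 4, and of chamber markers, with 3. Per Mb, skeletal muscle genes, at 6.67, came second to the sarcomere list, and blood genes, at 2.86, lay above cardiac transcription factors, at 2.63. The list of junction, adhesion and matrix genes had 3 of 51 (5.88%, 0.987 per Mb), Dsp, Col5a2 and Cdh5, and the region of Dsp, the desmoplakin gene, lay 2.82 kb upstream and scored 316.41 in S1 and 309.78 in S4. Cell cycle and growth genes had 3 of 42 (7.14%, 1.56 per Mb), Vgll2, E2f3 and Igf2, and the region of Vgll2, a TEAD cofactor gene, lay 60.7 kb upstream, held both TNAAGTG and GTGNTGACA and scored 312.13 and 253.68. Endothelial genes had 2 of 32 (6.25%, 1.28 per Mb), Lmo2 and Cdh5, whose regions scored 262.16 and 141.52 in S1 and 313.47 and 143.68 in S4.

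Epicardial and fibroblast genes had 2 of 26 (7.69%, 1.79 per Mb), Lsp1 and Tbx18. The higher-scoring of the 2 Lsp1 regions, at chr7:149644823-149646001, lay 1.31 kb upstream and scored 751.23 in S1 and 1278.83 in S4. The other lay 3.9 kb upstream and scored 264.52 and 149.02. For the former, the second nearest start was that of Tnni2, at 17.7 kb by the gene models used here. The study gives a longer distance to Tnni2. The study describes an element just upstream of Lsp1. The study found Lsp1 expression restricted to cardiac fibroblasts and, at a stage later than E11.5, unchanged in hearts with less of the mapped factor. From reporter assays and expression in such hearts, it assigned the element to repression of Tnni2 and Tnnt3 in the atria. The target of the region was not tested here. Blood genes had 2 of 24 (8.33%, 2.86 per Mb), with scores of 747.15 and 483.16 near Runx1 and 780.04 and 330.56 near Lyz2. Skeletal muscle genes had 4 of 29 (13.8%, 6.67 per Mb), Mybpc1, Myoz1, Tnni2 and Myf5, of which Tnni2 is also in the sarcomere list. The region nearest to Myoz1 lay at the 3′ end of the neighbouring gene Synpo2l and scored 409.81 and 882.83, and that of Tnni2, the gene of fast skeletal troponin I, held TNAAGTG and scored 199.84 and 239.17. For smooth muscle genes 0 of 15 were nearest to a region, which allows up to 20%, and for neural genes 0 of 29, which allows up to 10.3%. Over all genes the share was 2.37%, so a count of 0 in lists this small does not show that regions avoid them. Shared regions of any position were nearest to 20% of the smooth muscle genes and 27.6% of the neural genes, against 8.82% of all genes.

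**Figure D5:**
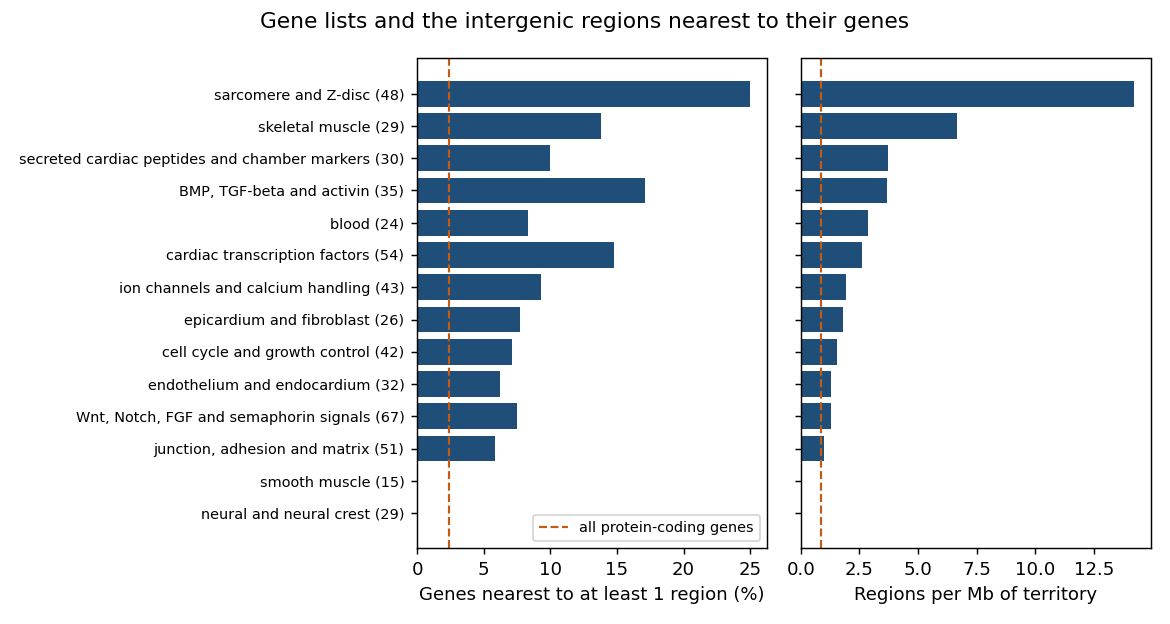
Share of the genes in each of 14 lists that were nearest to at least 1 region (left) and number of regions per Mb of intergenic sequence nearest to those genes (right), with the number of genes in each list in brackets and dashed lines for all protein-coding genes (2.37% and 0.845 per Mb). The sarcomere and Z-disc list has the highest bar in both panels, 25% and 14.2 per Mb.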

How the data were processed

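E11.5 hearts were fixed and sonicated, and an antibody was used to collect NKX2-5 chromatin. The study's methods name BOWTIE for alignment to mm9 and MACS for peak calling, and the submitters' processing notes also name CASAVA 1.4. Caller settings, and whether Input served as control, are not given in the sources used here. Each ChIP library has its own list of peaks, deposited with starts and ends in bp and a score. The deposited score, as read from its values, is the negative log10 of the p-value multiplied by 10 and is not scaled between libraries. S1 held 4418 peaks and S4 held 5441. Read numbers were not used here, so depth is unknown, and intervals cover counting error only.

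Regions were joined and placed by GENCODE M1 on NCBIM37, which is mm9, with coordinates counted from 1. Distances run from the region midpoint to the 5′ end of the nearest protein-coding gene. Motifs were exact matches on either strand. They may overlap: TNAAGTG and AAGTGACA contain AAGTG, and GTGNTGACA, TGANTGACA and AAGTGACA contain TGACA. Benjamini-Hochberg adjustment was applied separately to the tests against flanks, against the 3 classes, by distance and by score. The assembly used does not mark repeats, so repeat content was not measured here. In the lists, 3 symbols had no match in the annotation.

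The regions, motifs and gene lists were chosen with earlier results of these data known. Regions are named by a rule: the 10 highest smaller scores, up to 3 per gene list, the nearest to each limit, the lowest score and the 5 genes with most regions. Further genes of a list were named beside them after their values were seen, as were the wide regions. No sequence of chromosome 18 is printed. Some named items that the rule would give are not reported here. Scripts were checked with planted partners and motifs in simulated data. They ran in Python 3.11.15, with pysam 0.24.0, pandas 2.3.3, scipy 1.17.1, matplotlib 3.10.9, statsmodels 0.14.6 and numpy 2.4.6.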

Additional observations from a re-analysis of the deposited data

How the results depend on the processing

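No paired analysis was possible because both ChIP libraries belong to 1 group. The alternatives changed the score minimum, the overlap, the distance and promoter limits, the gene models, the midpoint, the window and the flanks, 1 at a time. Peaks of 1 library alone were also used, which drops the overlap and takes each peak's own midpoint together. The number of regions was 599 and became 380 when both scores had to reach 200, and with 1 library alone it was 1013 to 1210. It was 414 with a distance limit of 50 kb, 786 with 200 kb and 751 with starts of genes of any type. Midpoints within 150 bp gave 473, a promoter limit of 5 kb gave 485, and the other alternatives gave 544 to 632. The number of nearest genes, 529, became 348 with the score minimum, 866 to 1008 with 1 library and 375 to 668 under the other alternatives. The share of shared regions in the class, 23.5%, became 16.3% with a distance limit of 50 kb, 30.9% with 200 kb, 19.1% with a promoter limit of 5 kb and 29.5% with starts of genes of any type. The median smaller score, 239.86, became 333.4 with the score minimum and, for 1 library alone, 218.2 to 224.5.

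TNAAGTG and GTGNTGACA passed against the flanking windows in all 20 tests, 10 alternatives for each, and against promoters in 17 of 18, 9 for each. The exception was TNAAGTG in windows of 25 bp on each side (odds ratio 1.77, exact adjusted p = 0.116). The other comparisons of these 2 motifs, and of both together, had not passed and did not pass under the alternatives run. The remaining features were not run under alternatives. Among the comparisons that had not passed, odds ratios crossed 1 for TNAAGTG by distance with the score minimum (0.996) and S1 alone (0.924), for TNAAGTG by score with S1 alone (1.01), and for GTGNTGACA by score with the score minimum (0.765). They also crossed it for GTGNTGACA against regions beyond 100 kb with windows of 25 bp (0.834) and 250 bp (0.947), S4 alone (0.815) and S1 alone (0.978), and against introns with midpoints within 150 bp (0.991) and S4 alone (0.882), and for both motifs together with windows of 25 bp (1.15). The cause of these changes was not tested. With 2 libraries and no read numbers, the scores have no measure of precision.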

Other observations

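Shared stretches of at least 1200 bp, described above, also lay near 2 microRNA genes. The region near the 3′ end of Mir133a-2, a muscle microRNA gene, had a shared stretch of 3110 bp and lay 54.7 kb upstream of Slco4a1, the nearest protein-coding start. It scored 759.57 in S1 and 2324.36 in S4. The region that overlapped Mir145, a smooth muscle microRNA gene, scored 763.90 in S1 and 1712.49 in S4. Of the 19 wide regions, 10 overlapped the annotated body of a gene with some part of a peak although their midpoints lay outside it, against 19 of the other 580. These counts cover unlike lengths, since a longer peak reaches a gene body more often by length alone. In 1 wide region, 34.7 kb from Wee1, a form of the NKX2-5 core or the spaced pair was found within 100 bp of the midpoint. That region scored 694.31 in S1 and 465.58 in S4.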
